A study of Mus musculus with 72 samples.

Results

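The 6 genes Slc6a4, Slc18a2, Slc22a3, Slc29a4, Maoa and Maob, which move or break down monoamines, were followed through single Pet1 neurons of the mouse dorsal raphe (DR), the midbrain nucleus that supplies serotonin to the forebrain. These members were chosen by function, and all 6 were found among the 17231 genes of a droplet (10X) table of 2350 cells and among the 24256 genes of a table of 70 manually sorted cells. The 10X table pools EGFP-sorted cells of the whole DR from mice carrying Pet1-Flpe and a reporter allele labelled hM3Dq, which without Cre gives EGFP and no receptor (mean postnatal day 65.5), and from mice carrying En1-cre, Pet1-Flpe and RC-FrePe (mean postnatal day 59). All sorted cells came from mice heterozygous for Pet1-Flpe and for RC-FrePe, a reporter whose EGFP is switched on where both Flpe and Cre have acted, and for 1 of 4 Cre drivers. With Sert::cre, 10 cells were from the dorsolateral DR (Sert_dlDR), 9 from the dorsomedial (Sert_dmDR), 8 from the ventromedial (Sert_vmDR) and 6 from the caudal DR (Sert_cDR). They were taken at postnatal day 63 or 90, those of Sert_cDR at day 63 alone. P2ry1::cre gave 10 caudal cells (P2ry1_cDR, days 62 to 74), Npy2r::cre gave 10 caudal and 9 rostral cells (Npy2r_cDR and Npy2r_rDR, days 77 and 87) and Crh::cre gave 8 rostral cells (Crh_rDR, days 83 and 119).

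These designs set limits on what can be compared. Sert is another name for Slc6a4, and the Sert::cre driver is a transgene built on that gene's regulatory sequence, so those groups were chosen by a readout tied to 1 member, though not by its own locus. Cre labels every cell in which a driver was ever active. The labels name no animals, and neither table says which mouse a cell came from. The labels list 2 10X runs, but cells of the table are not mapped to them here. Each sorted group and the 10X table are therefore treated as 1 sample each, and all values below are descriptions with no test between groups. Intervals are 95% intervals that cover counting error only.

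Serotonin is made by Tph2 and Ddc, loaded into vesicles, released, and taken back up. Slc18a2 encodes VMAT2, the vesicular loader. Slc6a4 encodes SERT, the high-affinity plasma membrane transporter that is the target of serotonin reuptake inhibitors. Slc22a3 (OCT3) and Slc29a4 (PMAT) encode low-affinity, high-capacity carriers that accept serotonin along with other monoamines and cations. Maoa and Maob encode the mitochondrial enzymes that oxidize monoamines. Serotonin is the better substrate of MAO-A, while serotonin neurons are classically known for MAO-B.

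The genes lie on 5 chromosomes of GRCm38. Slc6a4 lies at chr11:76998603-77032340 on the plus strand, Slc22a3 at chr17:12418960-12507704 on the minus strand, Slc29a4 at chr5:142692512-142722490 on the plus strand and Slc18a2 at chr19:59260896-59296012 on the plus strand. Maoa (chrX:16619698-16687818, plus strand) and Maob (chrX:16709282-16817366, minus strand) are neighbours that converge tail to tail, with 21463 bases between them. Slc6a4, Slc22a3 and Slc18a2 overlap annotated genes on the opposite strand, by 960 bases with Gm12343, by 12735 bases with AC132106.1 and 426 bases with Plg, and by 524 bases with Gm29261, respectively. Reads from the overlaps cannot be told apart in the sorted cells, for which strand-aware counting is not stated.

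Because Slc6a4 and Slc18a2 were the pair whose levels ran most closely together over cells, their promoters (RefSeq, GRCm38.p6, plus strand, 250 bases before to 50 after the start) are shown, with each GGAA or TTCC, the core read by ETS factors such as Pet1, in capitals. The first covers chr11:76998347-76998646 and the second chr19:59260628-59260927.

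Slc6a4: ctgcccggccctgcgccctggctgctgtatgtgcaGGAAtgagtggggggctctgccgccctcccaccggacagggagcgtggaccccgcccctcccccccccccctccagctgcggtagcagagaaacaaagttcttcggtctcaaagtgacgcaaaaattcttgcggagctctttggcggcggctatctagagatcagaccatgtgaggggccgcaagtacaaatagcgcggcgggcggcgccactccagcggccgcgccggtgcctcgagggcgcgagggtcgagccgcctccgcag

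Slc18a2: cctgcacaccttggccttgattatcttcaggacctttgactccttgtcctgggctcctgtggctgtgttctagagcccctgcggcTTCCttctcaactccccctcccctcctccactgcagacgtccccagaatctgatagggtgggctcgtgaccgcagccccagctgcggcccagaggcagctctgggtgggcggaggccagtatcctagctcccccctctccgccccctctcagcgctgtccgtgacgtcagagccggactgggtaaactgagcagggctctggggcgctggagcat

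Each holds 1 such core, 215 bases before the start in Slc6a4 and 165 bases before it in Slc18a2. The core is in 96.0% of 32851 promoters of this length, with a median of 3 a promoter, so these counts were low rather than high. The 5 members with a promoter sequence (Maob was not matched) held 0 cores in Slc29a4, 1 in Slc6a4, 1 in Slc18a2, 3 in Maoa and 4 in Slc22a3. A GATA-like AGATAA or TTATCT was found in Slc18a2 alone, 230 bases before the start, and is in 11.2% of promoters. CCGGAA or TTCCGG, which contains the shorter core, was found in Slc22a3 alone, and is in 14.9% of promoters.

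The 2350 10X cells held 135543959 UMIs (unique molecules of captured RNA), between 12320 and 134079 a cell with a median of 59646. Barcode endings divide the cells into set 1 (869 cells) and set 2 (1481 cells), which were not mapped to genotypes, and no barcode was shared between the sets. Fev (Pet1) was detected in 100% of cells, which the removal of low-Fev cells before deposit fixes, and at least 1 UMI of Tph2 in 99.5%. Markers of catecholamine and acetylcholine neurons summed to at most 1.02 CPM (counts per 1000000 counts of the same cells) in any cluster of cells. Of 6 further monoamine transporter genes, Slc18a1 (VMAT1) stood at 0.80 CPM and Slc22a2 at 0.089 CPM, and the other 4 were not in the 10X table.

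Over all 10X cells, Slc18a2 measured 2354 CPM (interval 2346 to 2362) and Slc6a4 measured 2227 CPM (2219 to 2235). Slc18a2 was detected in 99.23% of cells and Slc6a4 in 98.26%. Maob measured 505.6 CPM and was detected in 95.87% of cells. Maoa measured 114.7 CPM, Slc22a3 111.2 CPM and Slc29a4 24.39 CPM. These levels are set by 3' molecule counting, whose capture can differ between genes, so they are read here between cells and not between genes.

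The high-affinity transporter was accompanied by at least 1 low-affinity carrier in most cells. Both Slc22a3 and Slc29a4 were detected in 61.9% of cells, Slc22a3 without Slc29a4 in 25.9%, Slc29a4 without Slc22a3 in 6.77% and neither in 5.4%. When every cell was thinned to 20000 UMIs (53 shallower cells left out), both were detected in 29.1% and neither in 14.1%, so the shares depend on depth. No cell type that lacks these genes is in the table, so the share that free RNA would give was not measured. Slc22a3 was detected in 78.8% of set 1 and 93.1% of set 2 cells, and in 65.9% and 83.4% after thinning, while its CPM was 85.7 and 125.1. Slc22a3 was thus higher in set 2, at equal depth as well.

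Cells were grouped into 14 clusters with the members removed from the genes that shaped them, and numbered by marker lists. Clusters of interest here are 4 (Vim and Sox14), 8 (Rorb, Nr2f2 and Wnt4), 12 (Met and Zeb2), 13 (Nfib and Nppc) and 14 (Gpr101 and Cxcl14). Clusters are compared with all other cells by the log2 ratio of CPM, and a ratio of at least 2-fold in either direction is counted. Lower by at least 2-fold were Maob in cluster 4, Slc6a4 in cluster 12, Slc6a4, Slc18a2 and Maob in cluster 13, and Slc6a4 and Maob in cluster 14, which makes 1, 1, 3 and 2 of 6 members. The other 10 clusters had 0 members lower. In barcode set 1 alone, 3 members were lower in cluster 12 (Slc18a2 at -1.04 and Slc22a3 at -1.13 beside Slc6a4), and Slc22a3 was lower in cluster 11 (-1.36). The share of all tested genes at least 2-fold lower was 4.58% in cluster 4, 7.38% in 12, 3.77% in 13 and 3.94% in 14. It was 3.18%, 3.38% and 2.4% in clusters 1 to 3, 2.18%, 1.95%, 2.38% and 2.65% in clusters 5 to 8 and 1.97%, 2.14% and 2.54% in clusters 9 to 11. No member was at least 2-fold higher in any of the 14 clusters. The share of tested genes that were higher was 1.42%, 1.56%, 0.873%, 2.44%, 1.43%, 1.95% and 1.07% in clusters 1 to 7, and 1.62%, 1.91%, 0.606%, 1.04%, 3.59%, 8.09% and 4.98% in clusters 8 to 14. The 6 members had a median log2 ratio of -1.31 in cluster 13 (all genes 0.18), -0.62 in cluster 14 (all genes 0.08), -0.51 in cluster 12 (all genes 0.06) and 0.14 in cluster 4 (all genes -0.01).

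**Figure D1:**
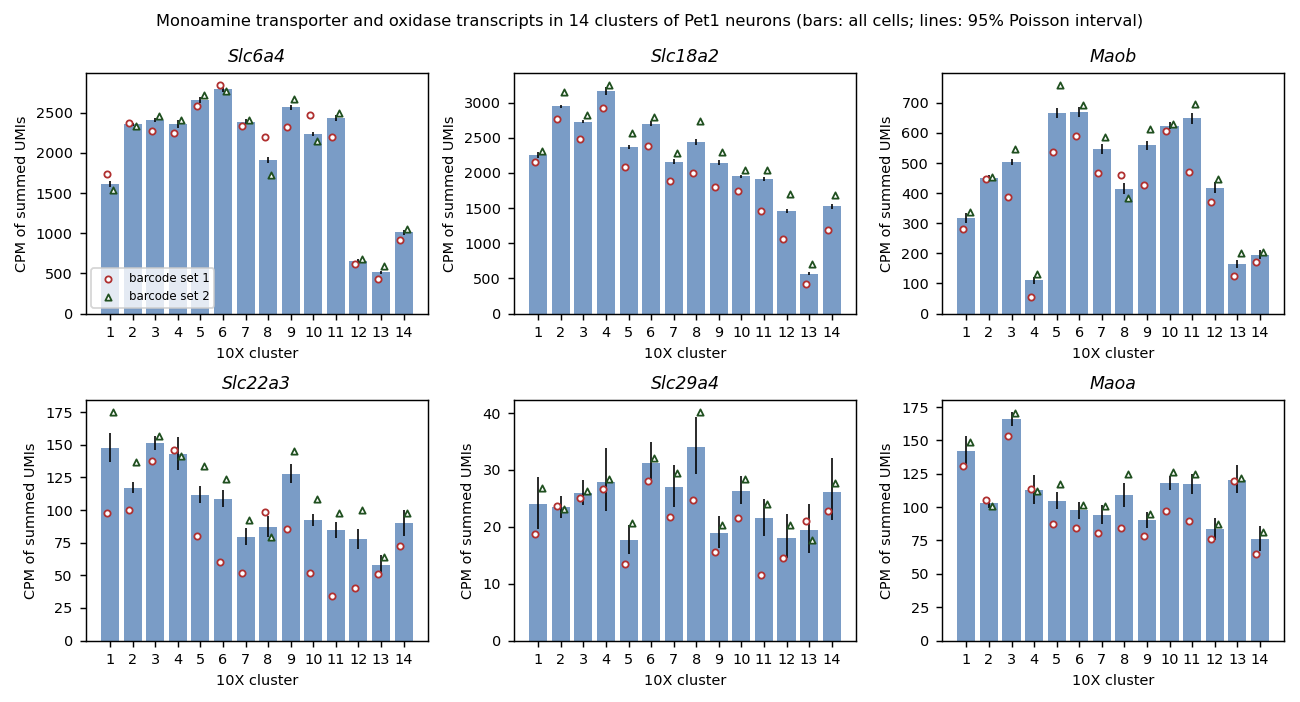
Level of each member in 14 clusters of 10X cells. Bars are CPM of summed UMIs with 95% Poisson intervals, circles barcode set 1 and triangles set 2. Maob falls to 110 CPM in cluster 4, where Slc18a2 is at its highest, and Slc6a4 is low in clusters 12, 13 and 14.

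Slc6a4, the reuptake transporter, was highest in clusters 6 (2793 CPM), 5 (2659 CPM) and 9 (2569 CPM), each with an interval apart from the next. The lowest levels were those of clusters 1 (1608 CPM), 14 (1012 CPM), 12 (659 CPM) and 13 (512 CPM). Clusters 12 and 13 differed in how that low level arose. In cluster 12, 100% of 109 cells had Slc6a4 and the 10th and 90th percentiles over cells were 333 and 1012 CPM. In cluster 13, 74.13% of 143 cells had it, the median cell was at 55.2 CPM and the 90th percentile was 1540 CPM. Low Slc6a4 was therefore shared by the cells of cluster 12 and mixed in cluster 13.

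Slc18a2, the vesicular loader, was highest in clusters 4 (3164 CPM), 2 (2945 CPM) and 3 (2728 CPM), a different order from Slc6a4. Its lowest levels were those of clusters 14 (1523 CPM), 12 (1459 CPM) and 13 (565 CPM). Against the cells outside it, cluster 12 had a log2 ratio of -1.80 (-1.85 to -1.75) for Slc6a4 and -0.71 (-0.75 to -0.68) for Slc18a2. Reuptake transcript was thus reduced further than loading transcript there. Cells of cluster 13 had a median of 28709 UMIs and those of cluster 14 a median of 34692, the lowest of the 14, and summed oligodendrocyte markers were 66.1 CPM in cluster 13 against 22.9 to 39.7 CPM elsewhere. The part of depth or glial RNA in these levels was not tested.

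Slc22a3 ranged 2.61-fold over clusters, with its highest levels in clusters 3 (151 CPM), 1 (148 CPM) and 4 (143 CPM) and its lowest in 13 (57.9 CPM). The order differed between barcode sets. In set 1 the range was 4.3-fold, between clusters 4 (146.2 CPM) and 11 (34.0 CPM), and in set 2 it was 2.73-fold, between clusters 1 (175.4 CPM) and 13 (64.2 CPM). Of the 13 pairs of neighbours in the order over all cells, 11 had overlapping intervals. Slc29a4 ranged 1.93-fold over all cells, between clusters 8 (34.0 CPM) and 5 (17.7 CPM), and all 13 neighbours overlapped. In set 1 it ranged 2.43-fold, between clusters 6 and 11, and in set 2 2.27-fold, between clusters 8 and 13. Relative to the high-affinity transporter, the log2 ratio of summed Slc22a3 to summed Slc6a4 UMIs was -4.32 over all cells. It was highest where Slc6a4 was lowest, at -3.09, -3.15, -3.5 and -3.45 for clusters 12, 13, 14 and 1, and lay between -4.91 and -3.99 for the other 10 clusters. Slc6a4 is the divisor and ranged 5.45-fold over clusters, so this ratio largely restates its level. In cluster 12, Slc22a3 itself was 77.5 CPM against 112.5 CPM in all other cells, and differed between sets (39.9 CPM in set 1 and 99.9 CPM in set 2).

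The oxidases behaved differently from each other. Maob ranged 6.07-fold, the widest of the 6 members over all cells, between clusters 6 (669 CPM) and 4 (110 CPM, at a log2 ratio of -2.23 to the rest, interval -2.37 to -2.09). Maoa ranged 2.18-fold, with its highest levels in clusters 3 (166 CPM) and 1 (142 CPM) and its lowest in 14 (76.1 CPM). In cluster 4 Maoa was 112.7 CPM against 114.8 CPM in all other cells, and Slc6a4, Slc18a2, Slc22a3 and Slc29a4 were also within 2-fold of the rest. Of the members, Maob was the only one past 2-fold in cluster 4. Cluster 4 was also the lowest in each barcode set alone, while the highest was cluster 10 in set 1 (607.9 CPM) and cluster 5 in set 2 (760.4 CPM). The level in cluster 4 was lower in barcode set 1 (55.2 CPM over 17 cells) than in set 2 (130.6 CPM over 42 cells).

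The spread over cells within a cluster was set beside counting error in clusters 1 to 11. The median over these 11 clusters of the variance over the Poisson value was 8.2 for Slc18a2, 7.35 for Slc6a4 and 5.77 for Maob, and 2.47 for Slc22a3, 1.49 for Maoa and 1.16 for Slc29a4. That measure grows with the number of UMIs, and the order changed once counting error was removed. The median coefficient of variation beyond counting was 49.6% for Slc22a3 and 40.8% for Maob, then 27.5% for Slc29a4, 25.7% for Maoa, 22.7% for Slc18a2 and 21.7% for Slc6a4. By these medians Slc22a3 and Maob varied most relative to their means, where Slc22a3 also differs between the pooled barcode sets. The other 4 members lay close together and are not ranked. For Slc29a4 and Maoa the value ran from 0.0% to 45.9% and from 0.0% to 46.4% over clusters, so it was poorly fixed at their low counts.

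To compare uptake with loading in the same cell, the log2 ratio of Slc6a4 to Slc18a2 UMIs (0.5 added to each) was taken. Its median over all cells was -0.10 with an SD of 0.75. In the 2211 cells with at least 10 UMIs of both genes the SD was 0.55, where counting error alone gives 0.21. The median ratios of clusters 1 to 4 were -0.44, -0.33, -0.18 and -0.43, and 21.7% of these 922 cells were above 0. Those of clusters 5 to 11 were 0.19, 0.02, 0.13, -0.22, 0.23, 0.18 and 0.33, and 66.7% of these 1075 cells were above 0. Cluster 8 was the exception among the latter over all cells, but not in barcode set 1 alone, where its median was 0.2 against -0.56 in set 2. Cluster 6 lay near 0, at 0.33 in set 1 and -0.03 in set 2. Clusters 5 to 11 together had medians of 0.35 in set 1 and 0.08 in set 2, and clusters 1 to 4 of -0.22 and -0.3. These sets of clusters were formed after the values were seen and their cells overlapped, so the contrast is a description.

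**Figure D2:**
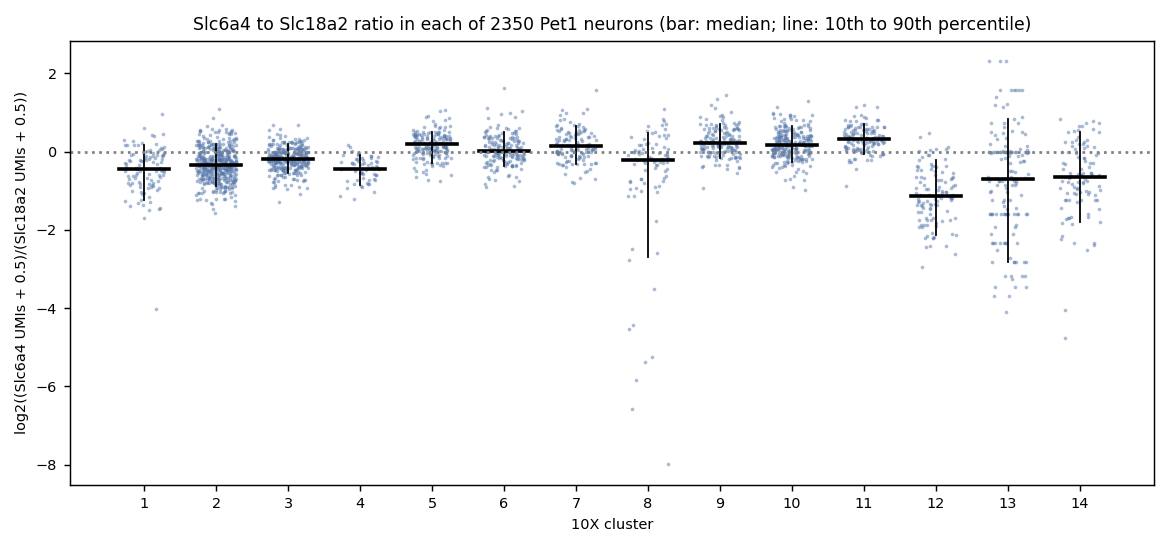
Log2 ratio of Slc6a4 to Slc18a2 UMIs in each 10X cell by cluster, where points are cells, bars medians and vertical lines the 10th to 90th percentile. Cluster 12 is low as a whole (median -1.13), while cluster 8 holds 11 cells far below its median of -0.22 (0.2 in barcode set 1 and -0.56 in set 2).

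Cluster 12 had the lowest median ratio, at -1.13 (10th to 90th percentile -2.12 to -0.20), and 13 of its 109 cells lay under -2. Clusters 13 and 14 had medians of -0.69 and -0.65 with SDs of 1.39 and 0.96, against 0.30 to 0.43 in clusters 2 to 7 and 9 to 11. In cluster 13, 32 of 143 cells had at least 10 UMIs of both genes, and their median was 0.01. The ratio of cluster 13 is thus carried by cells with few UMIs of either gene, of which 61 had at most 3 UMIs of both.

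Slc18a2 with nearly no Slc6a4 was seen in a few cells, and the opposite in 0. At most 3 UMIs of Slc6a4 with at least 10 of Slc18a2 were found in 11 of 2350 cells, 10 of them in barcode set 2. At most 3 UMIs of Slc18a2 with at least 10 of Slc6a4 were found in 0 cells. Cluster 8 held 5 of the 11 cells, cluster 14 held 3, cluster 13 held 2 and cluster 1 held 1, and none was called a doublet. The 5 cells of cluster 8 held 0, 1, 1, 1 and 3 UMIs of Slc6a4 and 127, 32, 85, 144 and 146 UMIs of Slc18a2. Their Tph2 UMIs, in the same order, were 73, 1, 55, 218 and 3, so the serotonin synthesis enzyme ranged from nearly undetected to abundant.

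Cluster 8 held 11 cells in all with a ratio under -2, a limit chosen after the values were seen. The highest of them was at -2.50 and the lowest of the other 75 cells at -1.77. Median Slc6a4 was 71.6 CPM in the 11 cells and 2019 CPM in the other 75, while median Slc18a2 was 2377 CPM and 2194 CPM. Median Maob was 25.3 CPM against 439 CPM, and median Gch1, the first enzyme of the tetrahydrobiopterin cofactor pathway, 74.9 CPM against 475 CPM. Median Maoa was 112 CPM against 107 CPM, and median Ddc 912 CPM against 1083 CPM. Other transcripts were lower as well, with medians of 25.3 CPM against 91.9 CPM for Slc22a3, 14.4 CPM against 31.2 CPM for Slc29a4, 1366 CPM against 3390 CPM for Tph2 and 125 CPM against 232 CPM for Fev. Low Slc6a4 beside kept Slc18a2 restates how the cells were picked. All 11 were in barcode set 2, and their median depth was 49020 UMIs against 67800. The 5 cells with at most 3 UMIs of Slc6a4 also differed in the markers of the cluster, with a median Rorb of 17.6 CPM against 172 CPM, a median Wnt4 of 0.0 CPM against 69.9 CPM and a median Nr2f2 of 187 CPM against 101 CPM in the other 81 cells. Over the 86 cells of cluster 8, Slc6a4 had an r of 0.84 with Maob and of 0.09 with Slc18a2. Without the 11 cells these were 0.59 and 0.07, and within the sets, also without them, the r with Maob was 0.6 in set 1 and 0.58 in set 2 and that with Slc18a2 was 0.28 and 0.22. These are descriptions over cells that share a cluster and libraries.

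**Figure D3:**
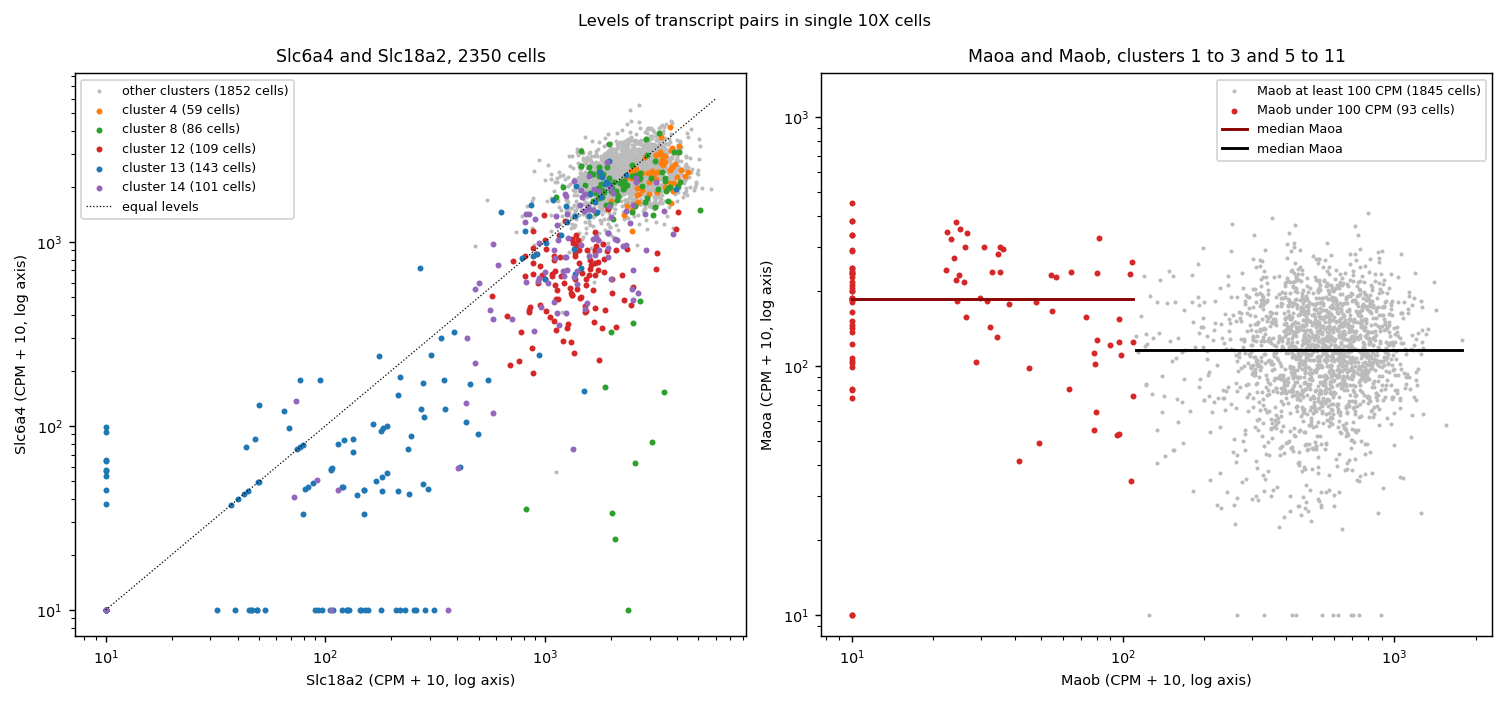
Left, Slc6a4 against Slc18a2 in each 10X cell, in CPM + 10 on log axes, with 5 clusters coloured and a dotted line at equal levels. Right, Maoa against Maob in clusters 1 to 3 and 5 to 11 on the same scales, where horizontal lines mark the median Maoa of the 93 cells with Maob under 100 CPM (176 CPM) and of the other 1845 (105.8 CPM).

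Maob was also nearly absent from some cells outside cluster 4. In clusters 1 to 3 and 5 to 11, 93 of 1938 cells (4.8%, exact binomial interval 3.89% to 5.85%) were under 100 CPM, a limit chosen after the values were seen. The highest of them was at 99.2 CPM and the lowest of the others at 102.0 CPM, and 72 of the 93 were under 50 CPM. The corresponding shares of clusters 4, 13, 14 and 12 were 59.3%, 60.1%, 34.7% and 0.917%. Median depth was 57590 UMIs in the 93 cells and 62680 in the other 1845, and 1 of the 93 was called a doublet.

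Cells with little Maob had more Maoa. Summed Maoa was 197.4 CPM (185.6 to 209.7) in the 93 cells and 113.3 CPM (111.3 to 115.2) in the other 1845, a log2 ratio of 0.80 (0.71 to 0.89). The difference lay at the low end of Maob. Maoa was 214.5 CPM (200.7 to 229.1) in the 72 cells with Maob under 50 CPM and 137.0 CPM (116.7 to 159.8) in the 21 cells from 50 to 100 CPM. From there on it was near level, at 116.8 CPM at 100 to 200 CPM of Maob, 110.1 CPM at 200 to 400, 113.5 CPM at 400 to 800 and 115.7 CPM over 800. Over all cells, which include the clusters left out here, the correlation of Maoa with Maob was -0.03.

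The difference was present in both barcode sets, with 163.3 CPM of Maoa (143.3 to 185.4) against 101.6 CPM in set 1 and 210.2 CPM (196.0 to 225.2) against 119.6 CPM in set 2. Of these 10 clusters, 9 had more Maoa in cells under 100 CPM of Maob, and in 8 the counting interval lay above 0. The log2 ratio was largest in cluster 11 (1.40, with 7 low cells), cluster 5 (1.26, with 5) and cluster 10 (1.09, with 6). It was 0.73 in cluster 3 (16 low cells) and 0.65 in cluster 2 (22 low cells). Cluster 1 did not show it (-0.02, with 13), and in cluster 4 Maoa was lower in the 35 low cells (-0.36, interval -0.65 to -0.07). With counts thinned to 20000 UMIs, the ratio was 0.68 (0.52 to 0.84) in 94 cells with under 2 UMIs of Maob. The medians of Slc6a4 and Slc18a2 did not rise with Maoa, at 2151 CPM against 2352 CPM and 2375 CPM against 2446 CPM. The low-Maob cells had a low tail of Slc6a4, with a 10th percentile of 362.6 CPM against 1670 CPM in the others. For Tph2 it was 858 CPM against 1734 CPM. Low-ratio cells of cluster 8 were among the 93. Without them, Maoa was 205.3 CPM in 84 low cells against 113.3 CPM. The limit and the comparison were chosen after the values were seen, and the cells share libraries.

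The levels of Slc6a4 and Slc18a2 ran together over cells, with a Pearson r of 0.83 on log-normalized values, 0.89 in set 1 and 0.78 in set 2. The values were smaller within clusters. The r of deviations from cluster means was 0.61, and 0.33 within clusters 1 to 11, while Spearman's rho was 0.52. Cells share libraries and depth, and over all cells Slc6a4 had an r of 0.50 with depth, or 0.11 in clusters 1 to 11.

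Among the 9718 other genes detected in at least 25% of cells, the pair ranked first for each other. Slc6a4 was followed closely by Tph2 (0.83), the bile acid transporter relative Slc10a4 (0.77), Ddc (0.74) and Pea15a (0.72). Slc18a2 was most like Slc6a4, Tph2 (0.78), Ddc (0.75), Hs6st2 (0.67) and Slc10a4 (0.67). Maob was most like Slc6a4 (0.55), Tph2 (0.54), Rgs2 (0.48), Pde2a (0.47) and Pea15a (0.45). Slc22a3 was most like Cplx2 (0.47), Slc18a2 (0.45), Nxph4 (0.41), Slc6a4 (0.40) and Pitpnc1 (0.39). Slc29a4 and Maoa had no gene at 0.3 or above, and their highest values were 0.14 and 0.29.

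Genes of the pathway around the members were counted in the same way, against the shares of all tested genes given above for each cluster. Of 9 genes of serotonin synthesis and its cofactor, 9 were tested in cluster 12, of which Gch1 (log2 ratio -2.31) and Pts (-1.06), both cofactor enzymes, were at least 2-fold lower and Tph1 (1.29) was higher. Tph1, at 2.51 CPM over all cells, was also at least 2-fold higher in cluster 9. In cluster 13, of 8 tested, Tph2 (-2.17), Ddc (-1.20), Gch1 (-2.21) and Pcbd1 (-1.01) were lower, in cluster 14 Tph2 (-1.0) alone of 8, and in cluster 4 Pts alone of 8. The 4 of 8 in cluster 13 stand beside a background of 3.77%, the 2 of 9 in cluster 12 beside 7.38%, and single genes are near the background. Cluster 12 thus combined low Slc6a4 and low Gch1 with Tph2 at -0.76 and Ddc at -0.32. This list had median log2 ratios of -0.68, -0.88 and -0.26 in clusters 12 to 14, where the medians of all genes were 0.06, 0.18 and 0.08. Of 10 genes that handle the aldehyde product of the oxidases or methylate monoamines, 9 were tested, and Aldh2 in cluster 12 (-1.08) was the only one past 2-fold in these 4 clusters, with 7.38% of all genes lower there.

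Of 4 factors of serotonergic identity (Fev, Gata2, Gata3 and Lmx1b), 0 were past 2-fold in these clusters, and their medians in clusters 12 to 14 were -0.35, -0.39 and -0.11. Of 8 genes for proteins that bind or regulate SERT, 5 to 7 were tested in a cluster. Gpm6b, a membrane proteolipid, was at least 2-fold lower in clusters 1, 4, 7, 8 and 12 and higher in cluster 5. It was at -3.11 in cluster 12, where the kinase gene Prkg1 had 0 UMIs, which allows up to 3 of 4968796. Prkg1 was also lower in clusters 3, 8 and 10 and higher in cluster 6. Stx1a, a syntaxin of the release machinery, was at -1.10 in cluster 13, where Prkg1 was at 1.06, and in cluster 14 Scamp2 (1.02) and Prkg1 (2.31) were higher. Of all tested genes, 8.09% were higher in cluster 13 and 4.98% in cluster 14, so these few calls are listed as values only.

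The 70 sorted cells held between 756872 and 7664103 reads on genes, with a median of 4113037. Reads there come from whole transcripts, so levels between genes were compared as CPM per kilobase of exon. The median over all cells was 762 for Slc6a4, 450 for Maob and 396 for Slc18a2, and 23.8 for Maoa, 11.3 for Slc29a4 and 10.5 for Slc22a3. Per length, reuptake, loading and MAO-B transcripts were thus an order above the low-affinity carriers and Maoa. Slc6a4 and Slc18a2 had reads in 70 of 70 cells, Maob in 68, Maoa in 67, Slc29a4 in 59 and Slc22a3 in 53. Summed astrocyte and ependymal markers had medians of at most 4.90 CPM in each group but Sert_cDR, where the median was 27.2 CPM and the highest cell 201.0 CPM. Oligodendrocyte markers were also highest in Sert_cDR (median 43.4 CPM, up to 268.0 CPM, against medians of 0.0 to 33.9 CPM elsewhere), as were catecholamine and acetylcholine neuron markers (median 3.81 CPM, up to 42.5 CPM, against medians of 0.0 CPM). Their part in the member levels of Sert_cDR given below was not tested.

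**Figure D4:**
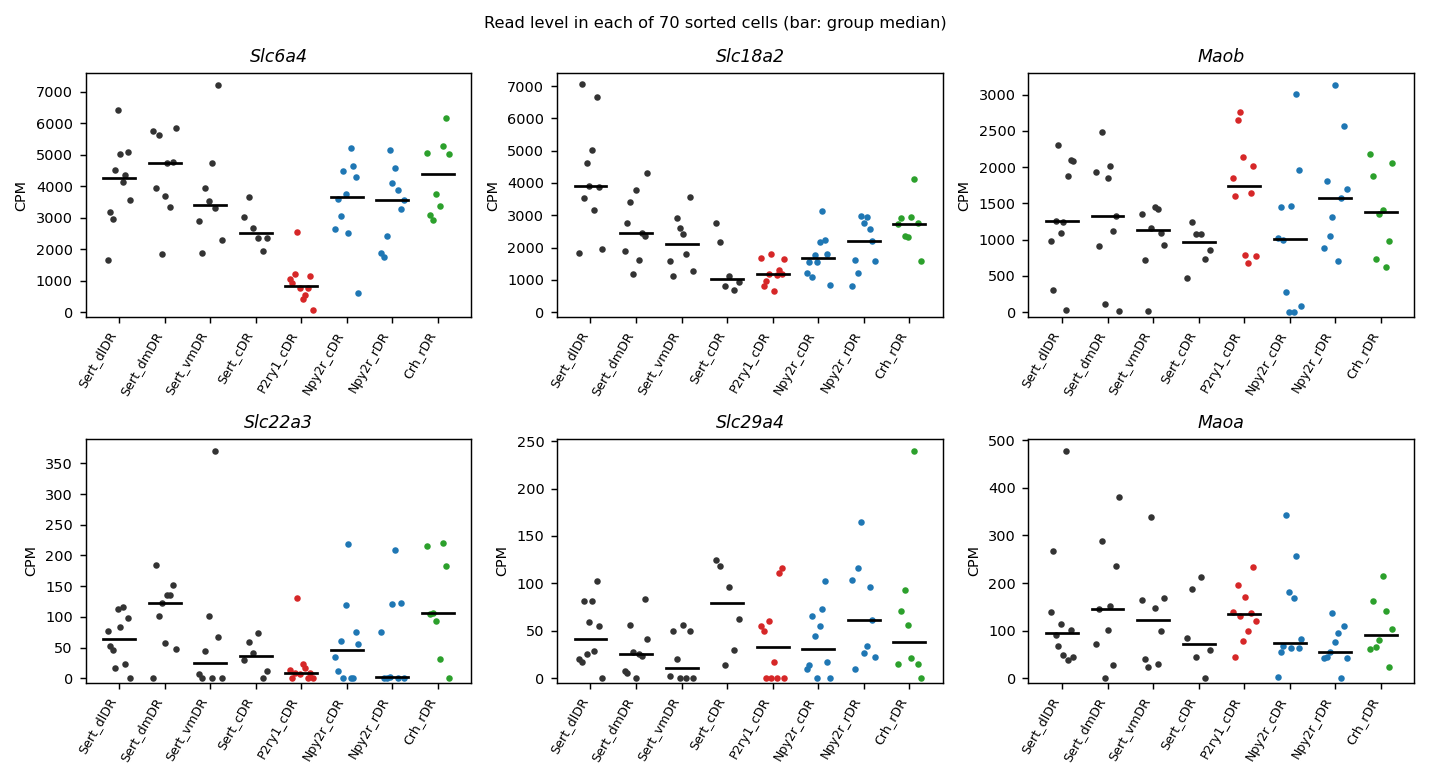
Level of each member (CPM) in each of 70 sorted cells by group, where points are cells and bars medians. P2ry1_cDR cells sit lowest for Slc6a4 (median 845 CPM) and highest for Maob (1747 CPM), and single cells with Maob near 0 appear in 4 groups.

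P2ry1_cDR stood apart in Slc6a4. In that group the lowest cell was at 64.8 CPM, the median was 845 CPM and the highest cell was at 2538 CPM. In Sert_cDR, dissected from the same caudal region, the corresponding values were 1945, 2516 and 3653 CPM, and in Npy2r_cDR 614, 3671 and 5207 CPM. One P2ry1_cDR cell overlapped the Sert_cDR range, and 9 of 10 lay below it. The group ranges overlapped for every member in each of the 8 pairs of groups compared, as they did for all but 1.05% of genes between P2ry1_cDR and Sert_cDR, 0.273% between P2ry1_cDR and Npy2r_cDR, 0.281% between Npy2r_cDR and Sert_cDR, 0.242% between Sert_vmDR and Sert_cDR, 0.0564% between Sert_dmDR and Sert_vmDR, 0.00939% between the Npy2r groups, 0.00937% between Crh_rDR and Npy2r_rDR and 0.0% between Sert_dlDR and Sert_dmDR. Medians of the 5 remaining groups ran from 3412 CPM in Sert_vmDR to 4744 CPM in Sert_dmDR, with overlapping neighbours. Since Sert::cre selects by a transgene of Slc6a4, the level of that gene in the Sert groups is a description only.

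The other members of the P2ry1_cDR cells varied in direction. Slc22a3 had a median of 8.29 CPM, the lowest but for Npy2r_rDR. Slc18a2 had a median of 1188 CPM (671 to 1797), between Npy2r_cDR (1670 CPM) and Sert_cDR (1026 CPM, the lowest of the 8 groups). Maob had a median of 1747 CPM (677 to 2759), the highest of the 8, and no P2ry1_cDR cell lacked it. Gch1 had a median of 128 CPM against 885 to 1605 CPM in the other groups. Met and Zeb2, markers of 10X cluster 12, had medians of 86.8 and 67.3 CPM in P2ry1_cDR and of 0.0 CPM in each other group. The sorted cells with cluster 12 markers thus showed low Slc6a4 and low Gch1 as cluster 12 did. Maob differed between the assays, being the highest of 8 groups here and somewhat below the rest in cluster 12 (418 CPM, log2 ratio -0.28, interval -0.35 to -0.22).

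The ratio of Slc6a4 to Slc18a2 per sorted cell (log2 of CPM + 1) ordered the groups differently from either gene. Its median was -0.65 in P2ry1_cDR (-4.64 to 1.09, with 3 of 10 cells above 0), -0.01 in Sert_dlDR (-1.15 to 0.86, 5 of 10 above 0) and 0.52 in Crh_rDR. It was 0.64 in Sert_dmDR and in Npy2r_rDR, 0.85 in Sert_vmDR, 1.15 in Npy2r_cDR and 1.20 in Sert_cDR. All neighbours in that order overlapped. The difference in exon length between the genes adds 0.21 to a ratio per kilobase and does not change the order. Sert_dlDR held the highest Slc18a2, with a median of 3894 CPM (1843 to 7075). Its median ratio was -0.15 at day 63 and 0.39 at day 90, with 5 cells each, a split by age that shares its dates with whatever else differed between those preparations. The lowest ratio of all belonged to 1 P2ry1_cDR cell with 64.8 CPM of Slc6a4 and 1643 CPM of Slc18a2.

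**Figure D5:**
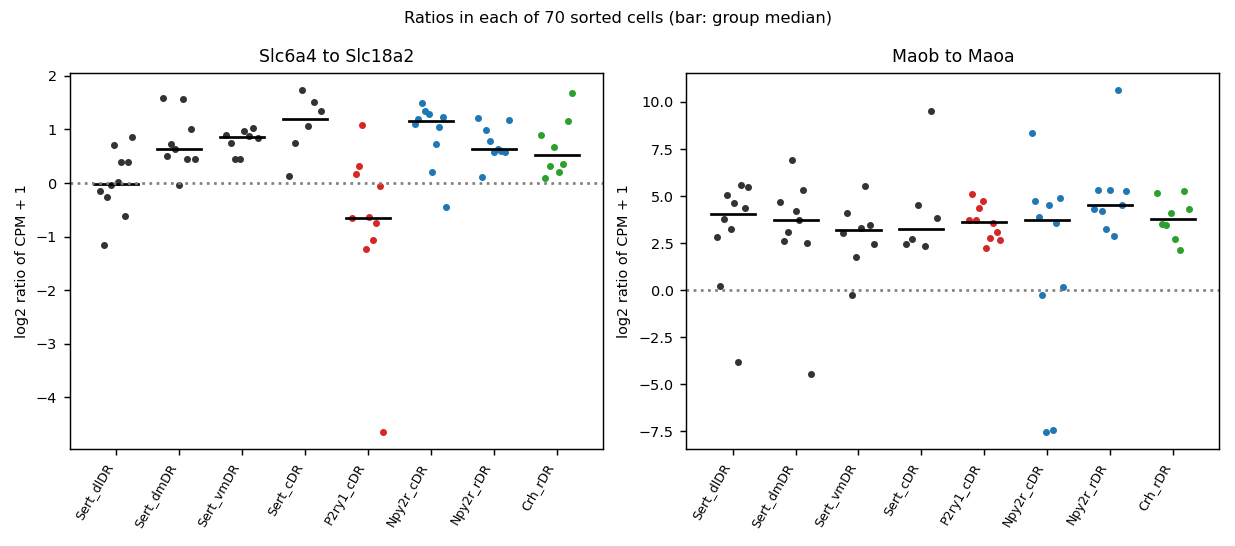
Log2 ratios of Slc6a4 to Slc18a2 (left) and of Maob to Maoa (right) in each of 70 sorted cells by group, where points are cells, bars medians and the dotted line equal CPM. The P2ry1_cDR median for Slc6a4 to Slc18a2 is -0.65, and 6 of 70 cells have less Maob than Maoa.

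Sorted cells with little Maob occurred as well. The limit of 100 CPM is not the same on both scales, as the median cell was at 1254 CPM here and 471 CPM in the 10X table. The 10X share of 4.8% covers clusters 1 to 3 and 5 to 11 only, while all sorted groups are counted here. Maob was under 100 CPM in 6 of 70 cells, and its group medians ran from 966 CPM in Sert_cDR to 1747 CPM in P2ry1_cDR. The 6 cells were at 33.6 CPM in Sert_dlDR, 16.4 CPM in Sert_dmDR, 19.8 CPM in Sert_vmDR and 0.0, 0.0 and 92.8 CPM in Npy2r_cDR. These cells were not shallow, with 3132389 to 5245358 reads. Their Maoa, in the same order, was 478.4, 381.1, 23.6, 181.6, 168.4 and 82.6 CPM. The first and second were the highest Maoa values of their groups, and the third was the lowest of its group. The median Maoa was 175.0 CPM in the 6 cells and 96.3 CPM in the other 64, whose range of 0.0 to 342.6 CPM overlapped theirs. In 5 of the 6, Slc6a4 was 3748 CPM or more, and in the remaining Npy2r_cDR cell it was 614 CPM.

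Low-affinity carriers varied widely within groups. Slc22a3 had medians of 122 CPM in Sert_dmDR, 106 CPM in Crh_rDR and 64.0 CPM in Sert_dlDR, down to 8.29 CPM in P2ry1_cDR and 1.32 CPM in Npy2r_rDR. In 7 of the 8 groups its lowest cell was at 0.0 CPM and its highest was above 100 CPM. Sert_cDR, at 0.0 to 74.3 CPM, was the exception. Slc29a4 had its highest median in Sert_cDR, the group with the most other-cell markers (79.4 CPM, 13.4 to 124.8), and its lowest in Sert_vmDR (11.0 CPM, 0.0 to 56.0). Maoa had medians between 55.1 CPM in Npy2r_rDR and 145 CPM in Sert_dmDR, all overlapping.

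Groups were compared in 8 pairs by the log2 ratio of mean CPM + 1, which gave 48 values for the members. Of these, 6 reached 2-fold, in 3 members. Slc6a4 was lower in P2ry1_cDR than in Sert_cDR (-1.50) and than in Npy2r_cDR (-1.88), comparisons that share the P2ry1_cDR cells. Of all tested genes, 19.4% were at least 2-fold lower and 16.8% higher in the first pair, and 15.7% and 14.1% in the second. The first pair shares day 63 alone, with 1 P2ry1_cDR cell, and the second shares no postnatal day. Npy2r_cDR and Sert_cDR, and Crh_rDR and Npy2r_rDR, share none either. Group and age cannot be told apart in these pairs. Slc22a3 was lower in P2ry1_cDR than in Npy2r_cDR (-1.41, and -2.58 to -0.88 when 1 cell was left out), higher in Sert_vmDR than in Sert_cDR (1.02) and higher in Crh_rDR than in Npy2r_rDR (1.01, and 0.83 to 1.55 when 1 cell was left out). By medians of log2(CPM + 1) these 3 were -2.27, -0.97 and 5.52, so their size depends on the measure. Slc29a4 was lower in Sert_vmDR than in Sert_cDR (-1.70, -2.0 on day 63 alone and -3.32 by medians). In these pairs 14.6% of genes were higher and 12.0% lower (Sert_vmDR against Sert_cDR) and 10.4% higher and 9.83% lower (Crh_rDR against Npy2r_rDR). Against those shares, 1 or 2 of 6 members in a pair is near the background. The Slc22a3 difference between Sert_vmDR and Sert_cDR rested on 1 cell, at 370.9 CPM, without which it was -0.19, and on day 63 alone, which both groups share, it was 0.07 (4 and 6 cells).

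The remaining 4 pairs held 0 members past 2-fold over all days by mean CPM. Some medians lay further apart. For Slc22a3 they were 121.8 CPM in Sert_dmDR and 25.32 CPM in Sert_vmDR, and 45.19 CPM in Npy2r_cDR and 1.321 CPM in Npy2r_rDR. For Slc29a4 they were 30.9 CPM in Npy2r_cDR and 79.39 CPM in Sert_cDR. The share of all genes was computed by mean CPM alone. By that measure 10.3% of genes were lower and 7.14% higher in Sert_dlDR than in Sert_dmDR, and 11.4% and 8.59% in Sert_dmDR than in Sert_vmDR. In Npy2r_cDR, 14.2% were lower and 13.3% higher than in Sert_cDR, and 12.4% and 9.61% than in Npy2r_rDR. Within a shared day, Slc22a3 was lower in Sert_dlDR than in Sert_dmDR (-1.36) and higher in Sert_dmDR than in Sert_vmDR (1.38) on day 63, and on day 77 Slc29a4 was lower (-1.17) and Maoa higher (1.28) in Npy2r_cDR than in Npy2r_rDR, with 3 to 6 cells a group. On the later day of each pair these were -0.36, 0.03, -0.7 and 0.83. Such small groups put more genes past 2-fold. On day 63, 16.9% of all tested genes were lower in Sert_dlDR than in Sert_dmDR and 14.3% higher in Sert_dmDR than in Sert_vmDR, and on day 77, 19.6% were lower and 21.4% higher in Npy2r_cDR than in Npy2r_rDR. Over the 70 cells, Slc6a4 correlated with Slc18a2 at r = 0.57 (0.40 after removing group means) and with Maob at -0.05, and Maoa correlated with Maob at -0.06, as descriptions over cells of 8 groups.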

How the data were processed

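RNA was measured in single EGFP-labelled Pet1 neurons. The authors deposited UMI counts for the 10X cells (Cell Ranger 3.0.2, mm10, filtered in R 3.5.3 for cells with few genes, glial or mitochondrial transcripts, low Fev or outlying totals) and read counts for sorted cells (SMART-Seq v4, STAR 2.5.4, mm10), both without normalization.

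Members and gene lists were chosen with earlier results of these data known. Counts were scaled to CPM. Clusters were made in Seurat 5.3.0 (R 4.3.3) from 1995 of 2000 variable genes, the 5 variable members being left out, with principal components 1 to 5 and 8 to 50, 20 neighbours and a resolution of 0.9, and numbered by marker lists. Components 6 and 7 were left out as in the study. Barcode set explained 48.3% of component 6 and 19.1% of component 7. Intervals are exact Poisson or Clopper-Pearson intervals at 95%. Scrublet (scanpy 1.11.5, expected rate 5%) called 14 doublets, which were kept. Similar genes were the 5 with the highest Pearson r, named from 0.3. Genes entered fold comparisons from 5 CPM in either group. Named genes are the members, members of the lists at 50 CPM or past 2-fold, and these similar genes; Wnt4, Nr2f2, Met, Zeb2 and Fev are markers named beside results. Column names of 8 Crh::cre cells read Crf and were matched by position label and number. Gene coordinates are from GENCODE on GRCm38 and promoters from RefSeq. Scripts used Python 3.11.15, numpy 2.4.6, pandas 2.3.3, scipy 1.17.1, matplotlib 3.10.9 and edgeR 4.0.16 (TMM scaling alone), and the fold calculation was tested on simulated data.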

Additional observations from a re-analysis of the deposited data

Results flagged for a closer look

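In the sorted cells, the lowest and highest value of each member and of the Slc6a4 to Slc18a2 ratio was compared with the rest of its group by Dixon's gap at the 95% level on the log2(CPM + 1) scale. Of 56 combinations of measure and group, 14 held a value that stood apart, in 11 cells, all at the low end. Chance gives about 1 in 20 groups for values that follow a normal distribution, which these need not do, since a gene with no reads falls to 0 on this scale (7 of the 14 values) and the ratio shares its Slc6a4 value. The number is therefore not set against chance. For Slc6a4 these were Sert_dmDR cell 4 (10.86), P2ry1_cDR cell 10 (6.04) and Npy2r_cDR cell 10 (9.27). The ratio stood apart in the same P2ry1_cDR cell 10 (-4.64). Maob stood apart in Sert_dlDR cell 7 (5.11) and Sert_vmDR cell 3 (4.38). Maoa stood apart in Sert_dmDR cell 4 (0.0), Sert_cDR cell 5 (0.0), Npy2r_cDR cell 1 (1.66) and Npy2r_rDR cell 7 (0.0). Slc22a3 stood apart at 0.0 in Sert_dlDR cell 10, Sert_dmDR cell 1 and Crh_rDR cell 8, and Slc29a4 at 0.0 in Sert_dlDR cell 10. Sert_dmDR cell 4 and Sert_dlDR cell 10 thus each stood apart for a pair of members, and P2ry1_cDR cell 10 for Slc6a4 and the ratio.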

How the results depend on the processing

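The 7 member differences of at least 2-fold between 10X clusters kept that size under every alternative that gave a value: members kept among the variable genes, components 6 and 7 kept, resolution 0.7, thinned counts, doublets left out, mitochondrial UMIs left out, mean of CPM and each barcode set alone. Maob in cluster 4 ran from -3.00 to -2.09 and Slc6a4 in cluster 12 from -1.86 to -1.72. Clusters 6 and 8 had no match at resolution 0.7, and cluster 14 none there or with components 6 and 7 kept. With barcode set 1 alone, 3 members were at least 2-fold lower in cluster 12, and Slc22a3 in cluster 11 was at -1.36. Slc22a3 in cluster 13, at -0.97 as reported, was at -1.37 after thinning, -1.43 by the mean of CPM and -1.0 with components 6 and 7 kept or without mitochondrial UMIs. The median Slc6a4 to Slc18a2 ratio over all cells was 0.0 in set 1 and -0.13 in set 2, and in cluster 8 it was 0.2 in set 1 and -0.56 in set 2, where the low-ratio cells lay. In cluster 13 it was 0.01 in cells with at least 10 UMIs of both genes. The correlation of Slc6a4 with Slc18a2 was 0.79 after thinning, 0.61 for deviations from cluster means and 0.52 by Spearman's rho. With the median of log2(CPM + 1) in place of mean CPM, 13 of 48 differences between sorted groups reached 2-fold, also in pairs with 0 by mean CPM. Slc22a3 was then -0.97 in Sert_vmDR against Sert_cDR and 5.52 in Crh_rDR against Npy2r_rDR. Slc29a4 in Sert_vmDR against Sert_cDR was -3.32. Leaving out each cell in turn was an alternative chosen after seeing the data. It gave -0.19 (without Sert_vmDR replicate 6) to 1.35 for Slc22a3 in Sert_vmDR against Sert_cDR. For Slc22a3 in P2ry1_cDR against Npy2r_cDR it gave -2.58 to -0.88 (without Npy2r_cDR replicate 6). It brought the Slc22a3 difference of Sert_vmDR against Sert_cDR under 2-fold in 5 of 14 cases, Crh_rDR against Npy2r_rDR in 8 of 17 and P2ry1_cDR against Npy2r_cDR in 1 of 20. The Slc6a4 and Slc29a4 differences fell under it in 0. Of 2528 alternative values, 2283 were counted as unchanged against the spread of the reported one, 241 moved and 4 reversed. Some of the moved values kept their sign. No sorted level or sorted ratio median moved, while most of the moved values were 10X cluster ratios and most correlations moved. The total is therefore not read as a measure of stability. Where no value above shows the cause of a move, the cause was not tested. Comparing sorted groups within a shared postnatal day, also chosen after seeing the data, gave 42 values, of which 5 reached 2-fold. Depth limits Slc29a4 most, since it was seen in 68.68% of cells as deposited and 37.96% after thinning. No paired analysis was possible because replicate numbers only name cells, and no label ties a cell to an animal.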
